A study of Mus musculus with 24 samples.

Results

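Transcription factors that hold lymphocytes in a resting state or govern their differentiation were followed in splenic regulatory T (Treg) cells, 9 of the 17464 genes listed in the expression table. The members were *Tcf7*, *Lef1*, *Bach2*, *Id2*, *Id3*, *Satb1*, *Foxp1*, *Foxo1* and *Myb*, found by matching each Ensembl identifier to its symbol. All 9 passed the filter on low values. The libraries came from wild-type C57BL/6JRccHsd mice, 4 young (2 months) and 4 old (26 months). From the spleen of each mouse 3 Treg subsets were sorted by flow cytometry: resting cells (rTreg, CD44-), activated cells (aTreg, CD44+) and cells carrying the inhibitory receptor KLRG1 (kTreg, KLRG1+). Each of the 6 groups of age and subset thus held 4 bulk RNA-seq libraries, each from a single mouse, and no group received a treatment. Sequencing gave 15045747 to 29521942 reads on listed genes per library.

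Resting Treg cells recirculate through lymphoid organs and share with naive T cells a set of factors that keep the genes of lymph node homing and survival on and effector genes off. On activation this set is turned down while effector regulators such as BLIMP-1 are turned up. The Id proteins form a further layer: they pair with E proteins, the basic helix-loop-helix factors that bind E boxes in DNA, and keep them off DNA, and in T cells Id3 is characteristic of resting and Id2 of effector states.

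The promoters of *Lef1*, *Id2* and *Id3* are shown because *Lef1* and *Id3* fell and *Id2* rose in the same samples. Each is the RefSeq window of 250 bases before to 50 bases after a transcription start, placed on GRCm39 by an exact match, read 5′ to 3′ on the gene's strand, with E boxes (CANNTG, which reads alike on both strands) in capitals. *Lef1* lies at chr3:130903696-130903995 on the plus strand, *Id2* at chr12:25146042-25146341 on the minus strand and *Id3* at chr4:135870883-135871182 on the plus strand, the latter 2 with their start 1191 and 325 bases inside the GENCODE gene.
Lef1: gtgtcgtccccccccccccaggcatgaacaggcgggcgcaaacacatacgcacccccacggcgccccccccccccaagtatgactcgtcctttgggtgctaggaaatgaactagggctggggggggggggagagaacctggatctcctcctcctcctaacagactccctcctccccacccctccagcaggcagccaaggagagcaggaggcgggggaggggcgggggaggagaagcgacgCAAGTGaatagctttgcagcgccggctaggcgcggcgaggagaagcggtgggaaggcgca
Id2: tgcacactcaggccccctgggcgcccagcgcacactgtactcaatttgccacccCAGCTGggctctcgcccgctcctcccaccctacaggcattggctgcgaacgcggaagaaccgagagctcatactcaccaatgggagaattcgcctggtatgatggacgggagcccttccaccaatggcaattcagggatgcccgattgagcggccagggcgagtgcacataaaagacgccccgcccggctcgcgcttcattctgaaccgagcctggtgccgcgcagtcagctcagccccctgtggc
Id3: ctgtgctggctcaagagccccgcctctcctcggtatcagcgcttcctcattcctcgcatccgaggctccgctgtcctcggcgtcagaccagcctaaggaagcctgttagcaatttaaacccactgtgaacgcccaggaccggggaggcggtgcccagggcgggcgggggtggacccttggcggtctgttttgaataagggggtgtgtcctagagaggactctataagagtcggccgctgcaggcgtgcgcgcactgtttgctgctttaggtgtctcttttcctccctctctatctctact
Of the 9 members' windows, those of *Tcf7*, *Foxp1* and *Bach2* had their transcription start 778, 1731 and 178721 bases inside the GENCODE gene. None of these is shown. *Lef1* and *Id2* each held 1 E box and *Id3* held none, where 72.3% of 32544 RefSeq promoters of this length held at least 1. The TCF/LEF core TCAAAG, searched on both strands, was in 16.0% of promoters and in 1 of the 9 members' windows, that of *Bach2*. The MYB core TAACNG, in 23.4% of all promoters, was in the windows of *Lef1*, *Id3* and *Foxo1*. The forkhead core GTAAACA was in 3.66% of promoters and among the members in that of *Myb*, and the AP-1 and BACH core TGANTCA was in 7.79% of promoters and in none of the 9 windows. No E box in the printed windows overlapped a match to another motif.

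Values are normalized counts, the deposited expression unit, given for mice 1 to 4 in each group. Differences are limma log2 fold changes of log2(normalized count + 1) with their standard error (SE), and a gene was called where the fold change passed 1.5 and p, adjusted over 16630 genes by Benjamini-Hochberg, was below 0.05. Subset comparisons give young and old mice equal weight. In bulk RNA, fewer cells of a kind and less RNA per cell cannot be told apart.

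The sorted identities held, with exceptions that touch several results. *Klrg1* was at 16559 to 41561 in kTreg libraries and at most at 357 in the others. *Cd44* ranged from 1628 to 2509 in young rTreg and from 2932 to 4356 in young aTreg libraries, and from 1733 to 3756 and from 4896 to 6441 in the old, without overlap at either age. *Foxp3* was present in all 24 libraries but was low in old aTreg 2 (5080) and old rTreg 3 (13151). In old rTreg libraries the summed macrophage markers (5 of 5 genes listed) reached 10049 to 26168, against 536 to 7763 in young rTreg libraries, and the basophil and mast cell markers (3 of 3) 1843 to 5589 against 52.1 to 124. In kTreg libraries the macrophage sum was 17136 in young kTreg 2, 0 to 842 in the other young and 1754 to 2731 in the old. The 3 libraries of young mouse 2 had the highest B cell sums of their groups (6 of 6 genes, 7921 to 16712). Young kTreg 4 listed 4913 genes at 0, against 419 to 2756 in the other 23 libraries.

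**Figure D1:**
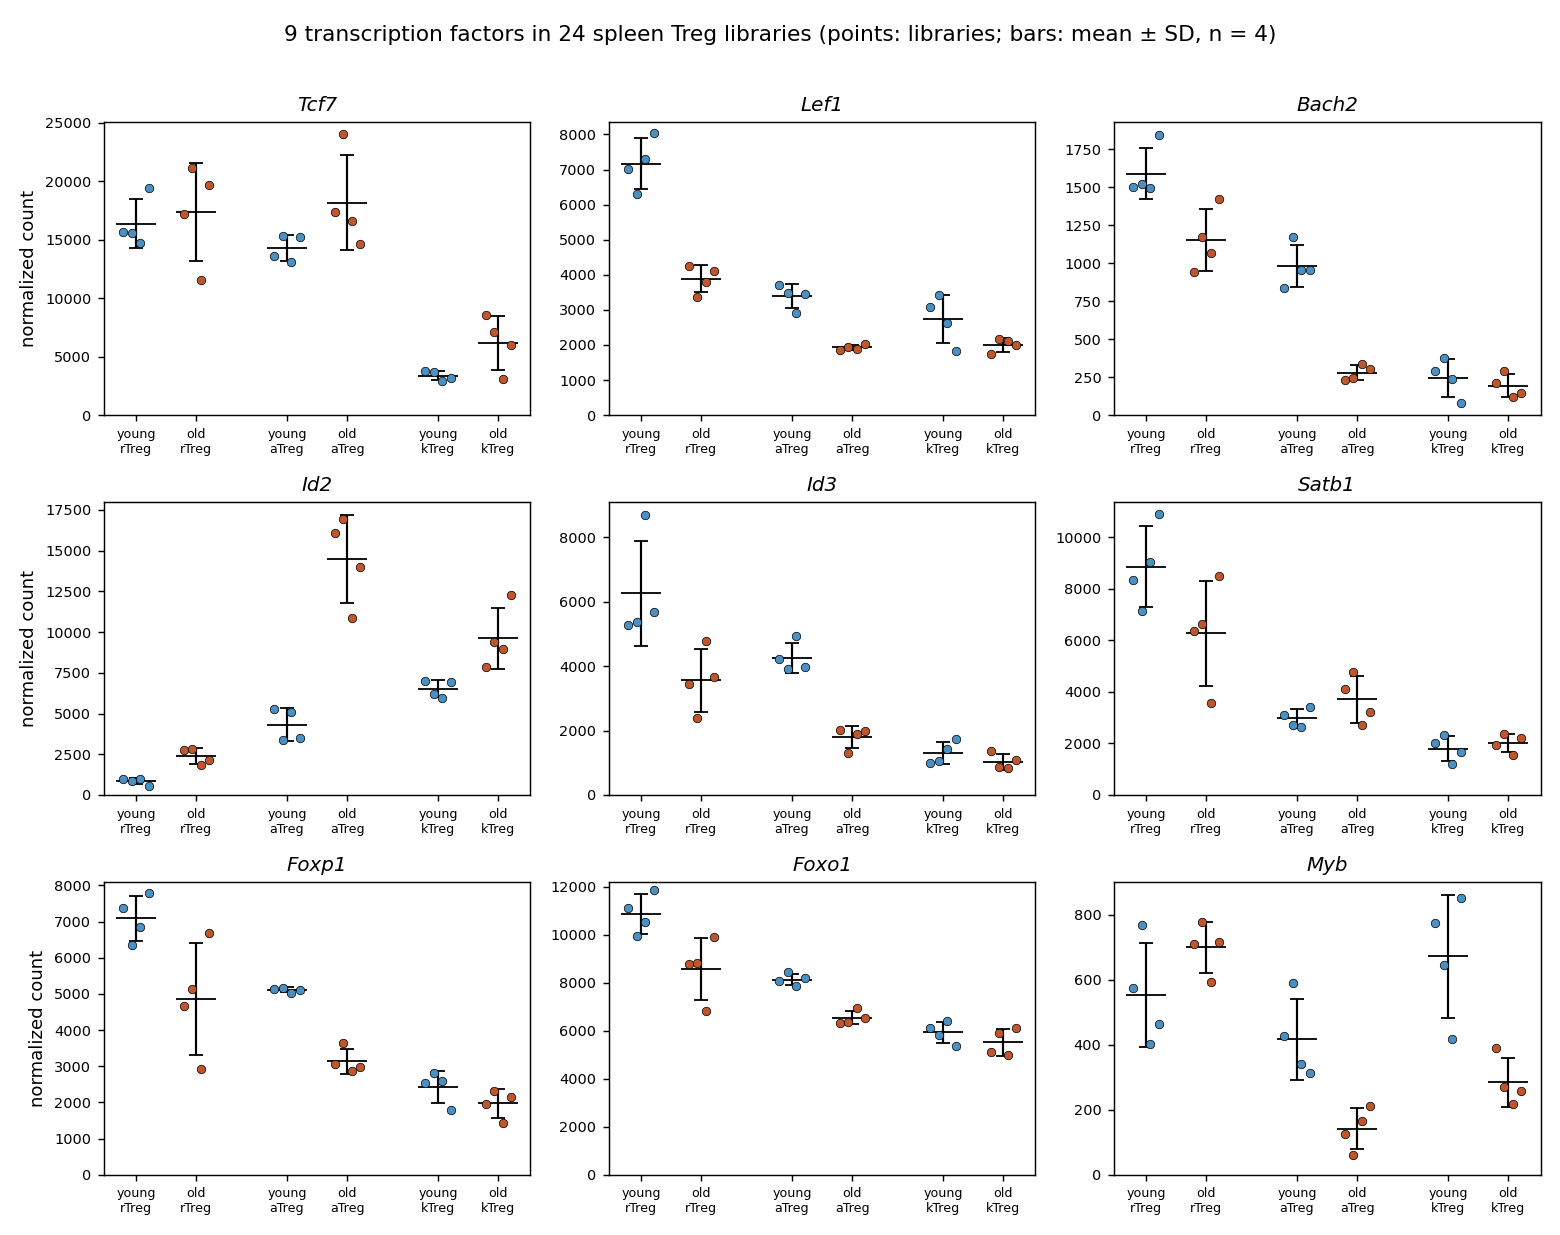
Normalized counts of the 9 factors (y axes, linear from 0) in the 6 groups of age and subset (x axes); points are the 4 mice of a group and bars the mean and SD. *Tcf7* stayed high in aTreg and dropped in kTreg libraries, *Lef1* was lower in both, and *Id2* rose in both.

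Most of the set differed between aTreg and rTreg cells. In aTreg against rTreg cells 1 member was higher and 5 were lower, where 5.23% and 2.78% of all genes were called in these directions. The median member differed by -0.74 on the log2 scale against 0.06 for all genes. In kTreg against rTreg cells 1 was higher and 7 were lower (9.37% and 6.09% of all genes), and in kTreg against aTreg cells 1 was higher and 5 were lower (4.13% and 3.26%). The medians of the members in these were -1.41 and -0.81. *Id2* was the member that rose from rTreg cells and *Myb* the one that was higher in kTreg than in aTreg cells.

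**Figure D2:**
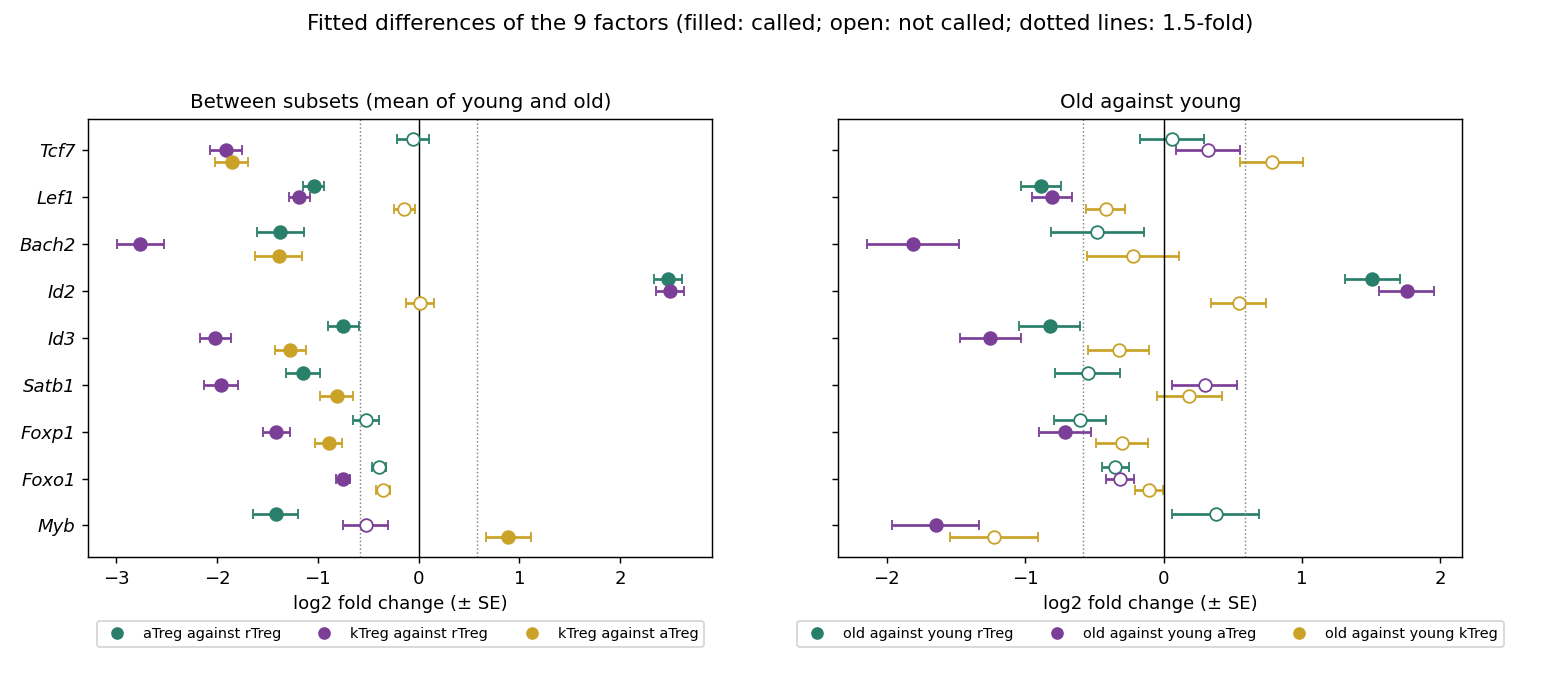
Fitted log2 fold changes (x axes, with SE bars) of the 9 factors (rows) between subsets, left, and between ages within a subset, right; filled points were called, open points were not, and dotted lines mark 1.5-fold. Most subset differences lie left of 0, with *Id2* near 2.5 against rTreg cells, and in kTreg cells no age difference was called.

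*Tcf7* encodes TCF-1, an HMG box factor that answers Wnt and β-catenin signals and keeps T cells able to self-renew. It was at 15639, 15597, 14736 and 19428 in young rTreg cells and at 13583, 15329, 13123 and 15191 in young aTreg cells. In young kTreg cells it was at 3791, 3668, 2917 and 3171. The young kTreg values lay below every other young value, while the rTreg and aTreg ranges overlapped. In old mice *Tcf7* was at 17163, 21091, 11551 and 19642 in rTreg cells, at 17377, 24003, 16579 and 14652 in aTreg cells and at 8547, 7078, 3083 and 6003 in kTreg cells. The kTreg group again stood apart and the other 2 overlapped, but *Tcf7* was lower in aTreg than in rTreg cells of 4 of 4 young mice and higher in 3 of 4 old mice. kTreg cells held 0.266 of the rTreg level (log2 fold change -1.91, SE 0.16, limma adjusted p = 1.62e-08) and 0.277 of the aTreg level (-1.85, SE 0.16, adjusted p = 1.99e-07), lower in 8 of 8 mice in each comparison. Between aTreg and rTreg cells the difference was -0.06 (SE 0.16, adjusted p = 0.903) and was not called. It was positive at 0.03 without old mouse 4.

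*Lef1*, which encodes the close relative of TCF-1 that binds the same sites, took another course. Its values were 7012, 6310, 7310 and 8039 in young rTreg, 3700, 3494, 2900 and 3455 in young aTreg and 3087, 3429, 2635 and 1839 in young kTreg cells. In old mice they were 4238, 3374, 3806 and 4107 in rTreg, 1869, 1956, 1877 and 2022 in aTreg and 1732, 2183, 2115 and 2005 in kTreg cells. At both ages rTreg cells stood above the other subsets without overlap, and aTreg and kTreg cells overlapped. *Lef1* in aTreg cells was at 0.486 of the rTreg level (log2 fold change -1.04, SE 0.10, limma adjusted p = 6.76e-07) and in kTreg cells at 0.441 (-1.18, SE 0.10, adjusted p = 1.68e-08). The step from aTreg to kTreg cells was -0.14 (SE 0.10, adjusted p = 0.416). Per kilobase of annotated exon *Tcf7* exceeded *Lef1* 5.53-fold in young rTreg, 10.3-fold in young aTreg and 3.06-fold in young kTreg cells, and 10.6-fold, 22.5-fold and 7.03-fold in the old groups. In the young mice the 3 subsets did not overlap in this ratio. In the old mice aTreg cells lay above both other subsets, which overlapped.

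**Figure D3:**
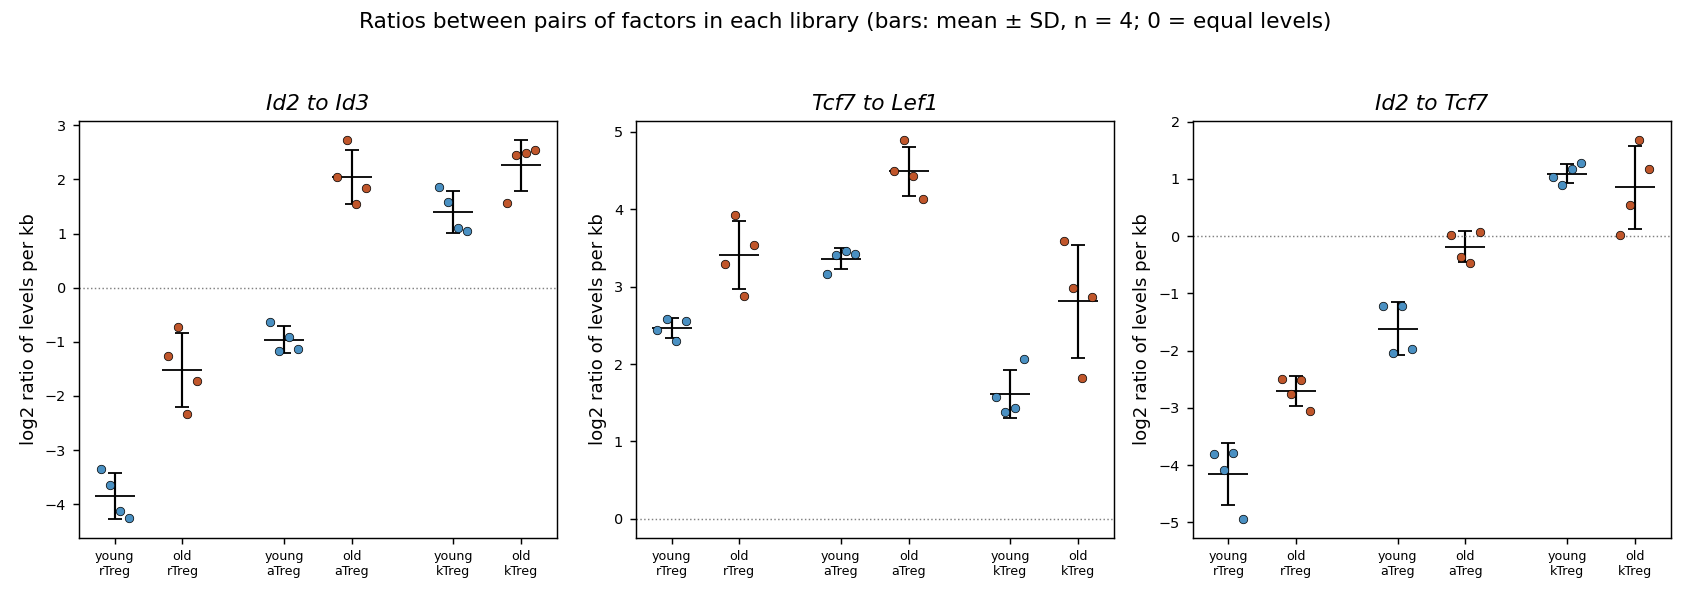
Log2 ratios of levels per kilobase of exon (y axes; 0 is equal levels) for *Id2* to *Id3*, *Tcf7* to *Lef1* and *Id2* to *Tcf7* in each library (points) with group mean and SD (bars). *Id2* to *Id3* crosses 0 between young aTreg and kTreg cells, and in the old between rTreg and aTreg cells.

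*Bach2* represses effector genes and keeps Treg cells quiescent. It was at 1502, 1524, 1495 and 1843 in young rTreg, at 838, 1170, 955 and 956 in young aTreg and at 290, 378, 236 and 79.7 in young kTreg cells. In old mice it was at 941, 1174, 1067 and 1421 in rTreg, at 231, 247, 336 and 305 in aTreg and at 212, 293, 121 and 148 in kTreg cells. In young mice the 3 ranges did not overlap, and in old mice aTreg and kTreg cells overlapped. Between aTreg and rTreg cells the young difference was not called (-0.70, limma adjusted p = 0.354) and the old one was (-2.04, adjusted p = 3.71e-04). Over both ages *Bach2* in aTreg cells was at 0.387 of the rTreg level (log2 fold change -1.37, SE 0.24, limma adjusted p = 4.47e-04). In kTreg cells it was at 0.148 of the rTreg level (-2.76, SE 0.24, adjusted p = 1.68e-08), the largest fall among the 9. Young kTreg 4, the library with 4913 genes at 0, gave the lowest *Bach2* value, from 87 reads.

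*Foxp1*, which keeps naive T cells quiescent and binds DNA beside FOXP3 in Treg cells, fell in kTreg cells to 0.376 of the rTreg level (log2 fold change -1.41, SE 0.13, limma adjusted p = 7.58e-08). It was at 6346 to 7785 in young rTreg, 5013 to 5175 in young aTreg and 1788 to 2803 in young kTreg cells, 3 ranges without overlap. In the old the ranges were 2916 to 6692, 2875 to 3648 and 1431 to 2324, and rTreg and aTreg cells overlapped through old rTreg 3, the library with the highest macrophage sum. In aTreg cells *Foxp1* was at 0.697 of the rTreg level (-0.52, SE 0.13, adjusted p = 0.0124), short of 1.5-fold, and without old rTreg 3 it passed (-0.63, adjusted p = 6.37e-04). From aTreg to kTreg cells it fell by 0.89 on the log2 scale (SE 0.13, adjusted p = 1.20e-04).

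*Foxo1* drives *Il7r*, *Ccr7* and *Klf2* in resting T cells until growth factor signals exclude it from the nucleus, so that much of its control lies outside RNA level. Among the 7 members called lower in kTreg than in rTreg cells its difference was the smallest. Group means with SD (n = 4) were 10855 ± 822 in young rTreg, 8130 ± 244 in young aTreg and 5932 ± 444 in young kTreg cells, without overlap. In the old they were 8576 ± 1283, 6539 ± 279 and 5520 ± 554, with rTreg and aTreg cells overlapping. The kTreg level was 0.595 of the rTreg level (log2 fold change -0.75, SE 0.07, limma adjusted p = 6.18e-08). The differences of -0.40 in aTreg against rTreg and -0.35 in kTreg against aTreg cells (SE 0.07 each) had adjusted p = 5.60e-04 and 0.00171 but were below 1.5-fold.

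*Satb1*, a chromatin organizer of T cells that FOXP3 represses, was at 8352, 7132, 9045 and 10888 in young rTreg, at 3100, 2713, 2653 and 3400 in young aTreg and at 2018, 2346, 1189 and 1651 in young kTreg cells. In old mice the ranges were 3583 to 8497, 2728 to 4756 and 1545 to 2354. In every mouse the order was rTreg, aTreg, kTreg from high to low. *Satb1* in aTreg cells was at 0.452 (log2 fold change -1.15, SE 0.17, limma adjusted p = 7.39e-05) and in kTreg cells at 0.257 of the rTreg level (-1.96, SE 0.17, adjusted p = 1.55e-08). From aTreg to kTreg cells it fell by 0.81 (SE 0.17, adjusted p = 0.00219).

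*Id2* and *Id3*, both inhibitors of E proteins, moved in opposite directions. *Id2* was at 1010, 831, 970 and 575 in young rTreg, at 5294, 3369, 5118 and 3501 in young aTreg and at 7020, 6195, 5968 and 6959 in young kTreg cells, 3 ranges without overlap. In old mice it was at 2774, 2824, 1837 and 2138 in rTreg, at 16071, 16937, 10867 and 14027 in aTreg and at 7874, 9380, 8980 and 12252 in kTreg cells. Old aTreg cells held the highest mean *Id2* of the 6 groups. *Id2* rose 5.56-fold in aTreg (log2 fold change 2.48, SE 0.14, limma adjusted p = 1.61e-10) and 5.63-fold in kTreg cells over rTreg cells (2.49, SE 0.14, adjusted p = 9.21e-11), in 8 of 8 mice each. Between kTreg and aTreg cells the mean difference was 0.02 (SE 0.14, adjusted p = 0.956), and this joined a higher kTreg value in 4 of 4 young mice to a lower one in 4 of 4 old mice. The summed NK cell markers were at 333 to 764 in young rTreg, 946 to 1131 in young aTreg and 333 to 686 in young kTreg libraries, and at 1489 to 2765, 1812 to 4037 and 534 to 1319 in the old. Their part in the *Id2* differences was not tested. The difference of *Id2* between kTreg and aTreg cells changed with age by -1.21 (SE 0.28, adjusted p = 0.0952) and was not called by limma, while DESeq2 on recovered reads called it (-1.19, adjusted p = 0.00784).

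*Id3* was at 5290, 5367, 8713 and 5680 in young rTreg, at 4221, 3905, 4934 and 3966 in young aTreg and at 998, 1063, 1430 and 1729 in young kTreg cells. In old mice it was at 3438, 2392, 4780 and 3651 in rTreg, at 2004, 1311, 1908 and 2002 in aTreg and at 1374, 877, 824 and 1077 in kTreg cells. *Id3* was lower in kTreg than in aTreg cells of every mouse, but the old ranges met, old aTreg 2 lying below old kTreg 1. It was at 0.597 of the rTreg level in aTreg (log2 fold change -0.74, SE 0.16, limma adjusted p = 0.00257) and at 0.247 in kTreg cells (-2.02, SE 0.16, adjusted p = 4.48e-09). The step from aTreg to kTreg cells was -1.27 (SE 0.16, adjusted p = 1.32e-05). Per kilobase of exon *Id3* exceeded *Id2* 14.4-fold in young rTreg cells and 1.95-fold in young aTreg cells, and *Id2* exceeded *Id3* 2.63-fold in young kTreg cells. In old mice *Id3* exceeded *Id2* 2.86-fold in rTreg cells, and *Id2* exceeded *Id3* 4.12-fold in aTreg and 4.80-fold in kTreg cells. The exon length is that of all annotated transcripts merged, which sets the absolute ratio but not its change between groups.

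*Myb*, a factor of progenitor and dividing cells that Treg cells need to form effector cells, followed neither course. It was at 574, 769, 403 and 464 in young rTreg, at 426, 589, 340 and 314 in young aTreg and at 775, 645, 418 and 850 in young kTreg cells. In old mice it was at 708, 778, 593 and 716 in rTreg, at 126, 62.0, 164 and 211 in aTreg and at 390, 269, 217 and 259 in kTreg cells. The young subsets overlapped, whereas the 3 old ranges did not. *Myb* was lower in aTreg than in rTreg cells (log2 fold change -1.42, SE 0.22, limma adjusted p = 1.79e-04) and higher in kTreg than in aTreg cells (0.89, SE 0.22, adjusted p = 0.0101), each in 8 of 8 mice. The latter call was lost without old mouse 1 (0.81, adjusted p = 0.0514). The lowest value rested on 60 reads.

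Taken age by age, the young and the old showed different numbers of steps past the threshold. In young mice aTreg cells had 2 members lower than rTreg cells (0.637% of all genes), *Lef1* and *Satb1*, and in old mice 4 (3.78%), *Lef1*, *Bach2*, *Id3* and *Myb*. kTreg cells had 7 lower than rTreg cells in the young (7.56%) and 8 in the old (3.09%), *Myb* being the addition. From aTreg to kTreg cells 5 were lower in the young (3.49%), namely *Tcf7*, *Bach2*, *Id3*, *Satb1* and *Foxp1*, and in the old *Tcf7* alone (0.866%). In old mice *Id3*, *Satb1* and *Foxp1* differed by -0.81, -0.87 and -0.69 with limma adjusted p = 0.0539, 0.0512 and 0.0549, and with the mouse as a random block they were called (0.0358, 0.0340 and 0.0374). *Satb1* in young kTreg against aTreg cells was itself near the threshold (-0.76, adjusted p = 0.0479), and 24 of 32 fits that left out a library or a mouse did not call it.

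Whether a subset difference itself changed with age was called on the adjusted p alone, below 0.05, with no fold threshold. This test called 1 member for aTreg against rTreg cells (1.58% of all genes). This was *Myb*, which differed by -0.41 in young mice and by -2.43 in old mice (difference -2.02, SE 0.45, limma adjusted p = 0.0246). The call was lost without young rTreg 3 or 4, young aTreg 2, old aTreg 1, young mouse 1 or 3, or old mouse 1 or 2, with adjusted p between 0.0507 and 0.0952 in these. *Bach2* (-1.33, SE 0.47, adjusted p = 0.160) was called without young kTreg 4 (adjusted p = 0.0202). No member was called for kTreg against rTreg cells (3.05% of all genes), where limma gave 5 at an unadjusted p below 0.05, edgeR called 1 and DESeq2 2. *Myb* (-1.60, SE 0.45, adjusted p = 0.0526) and *Id2* (-0.97, SE 0.28, adjusted p = 0.0626) came nearest, and with the mouse as a random block both were called (adjusted p = 0.0390 and 0.0453). Of 32 fits that left out a library or a mouse, *Myb* was called in 7, *Id2* in 2, without old rTreg 3 or old kTreg 4, and *Tcf7* (0.72, adjusted p = 0.253) in 2, without old kTreg 3 or old mouse 3. Nor was a member called for kTreg against aTreg cells (0.156%), where 3 had an unadjusted p below 0.05, edgeR called 0 and DESeq2 1.

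In old against young aTreg cells 1 member was higher and 5 were lower, where 1.85% and 0.86% of all genes were called. *Id2* rose 3.38-fold (log2 fold change 1.76, SE 0.20, limma adjusted p = 2.44e-05), and the old values started at 10867 where the young ended at 5294. *Bach2* fell to 0.285 of the young level (-1.81, SE 0.33, adjusted p = 0.00256), *Myb* to 0.320 (-1.65, SE 0.32, adjusted p = 0.00363), *Id3* to 0.420 (-1.25, SE 0.22, adjusted p = 0.00175) and *Lef1* to 0.572 (-0.81, SE 0.14, adjusted p = 0.00184). For each of these the old and young aTreg ranges did not overlap. The share of all genes without such overlap was not computed, so this only describes the values. *Foxp1* was at 0.611 (-0.71, SE 0.19, adjusted p = 0.0390), a call that was lost in 16 of 32 fits that left out a library or a mouse (adjusted p up to 0.149), among them each of the 8 aTreg libraries. *Tcf7* (0.32), *Satb1* (0.30) and *Foxo1* (-0.31) were not called.

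Other RNA moved with these aTreg differences. Summed NK cell markers (4 of 4 genes listed, none at 0 throughout a group) were at 946 to 1131 in young and 1812 to 4037 in old aTreg libraries. The Treg genes *Foxp3* (20351 to 25465 in young and 5080 to 19813 in old), *Il2ra* (7549 to 9925 and 2901 to 4558) and *Ctla4* (10431 to 13058 and 3128 to 8745) were lower in every old than in every young aTreg library. Old aTreg 2 had the lowest *Foxp3*, *Id3* and *Myb* of its group and the highest *Tcf7* and *Id2*. Without it 5 members were called, *Foxp1* having dropped out (-0.79, adjusted p = 0.0553). The part of the NK markers and of the Treg genes in these differences was not tested.

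In rTreg cells 1 member was higher and 2 were lower in old mice (4.12% and 1.71% of all genes). *Id2* rose 2.85-fold (log2 fold change 1.51, SE 0.20, limma adjusted p = 4.86e-05), with old values of 1837 to 2824 above the young 575 to 1010. *Lef1* fell to 0.542 of the young level (-0.88, SE 0.14, adjusted p = 4.30e-04), and every old value lay below every young one. *Id3* fell to 0.565 (-0.82, SE 0.22, adjusted p = 0.0252). This call was lost without young rTreg 3, the highest value of its group (-0.65, adjusted p = 0.128), without old rTreg 2, the lowest (-0.65, adjusted p = 0.0859), and without old mouse 4 (-0.85, adjusted p = 0.0617). It was also lost without the whole of young mouse 3 (adjusted p = 0.161) or old mouse 2 (adjusted p = 0.0747), so that 27 of 32 such fits called it. *Foxp1* (-0.60, adjusted p = 0.0565) was called without old rTreg 4 (-0.78, adjusted p = 0.0127) and without young kTreg 4 or old kTreg 3. *Foxo1* (-0.35, adjusted p = 0.0345) was below 1.5-fold, *Bach2* (-0.48) and *Satb1* (-0.55) had adjusted p = 0.436 and 0.170, and *Tcf7* (0.06) and *Myb* (0.38) 0.923 and 0.530. The macrophage and basophil sums given above moved with these differences, as did the plasma cell sums (3 of 4 genes listed, 62.7 to 1284 in young and 3170 to 9383 in old rTreg libraries). The NK cell sums (333 to 764 in young and 1489 to 2765 in old) and the platelet sums (3 of 3 genes, 42.2 to 73.8 and 451 to 981) did so too, as did the Treg gene *Il2ra*, at 9199 to 11167 in young and 3334 to 7021 in old rTreg libraries. Old rTreg 3 was highest in the macrophage, basophil and plasma cell sums and lowest in *Tcf7*, *Satb1*, *Foxp1* and *Foxo1*. Their part in the age differences was not tested.

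In kTreg cells no member was called between the ages by limma, where 1.02% of all genes were higher and 0.235% lower in old mice. In limma 2 members passed 1.5-fold at an unadjusted p below 0.05, edgeR called 0 and DESeq2 2. These were *Tcf7* (0.78, SE 0.23, limma adjusted p = 0.0976, DESeq2 adjusted p = 0.00953) and *Myb* (-1.23, SE 0.32, limma adjusted p = 0.0553, DESeq2 adjusted p = 0.00479). The young *Myb* values of 418 to 850 lay above the old values of 217 to 390. *Tcf7* overlapped through old kTreg 3 (3083), without which it was called (1.08, adjusted p = 0.00394). *Lef1* (-0.42, adjusted p = 0.161) was called without young kTreg 4 (-0.60, adjusted p = 0.00957). *Myb* was also called without young kTreg 3 (-1.44, adjusted p = 0.0336), and without old aTreg 2 or 4 through the shared spread. The part of the macrophage sums of the kTreg libraries, given above, in these age differences was not tested.

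Among the genes that these factors are known to act on, 5 of 5 resting-state target genes were tested. Of these 3 were lower and 1 higher in aTreg than in rTreg cells (2.78% and 5.23% of all genes). In kTreg against rTreg cells 4 were lower and 1 higher (6.09% and 9.37%). *Ccr7*, the receptor that brings T cells to lymph nodes, fell by 1.17 and 3.28 on the log2 scale (limma adjusted p = 4.86e-04 and 3.53e-10). *Klf2* and *S1pr1*, which govern exit from lymphoid organs, fell in both as well. *Bcl2*, which protects resting T cells from death, was not called in aTreg cells over both ages, though it was in the young (-0.87, adjusted p = 0.0123). It fell by 2.08 in kTreg cells (adjusted p = 7.97e-10), where *Tcf7* also stepped down. This fall from rTreg to kTreg cells was smaller in the old, a change with age that was called (1.97, adjusted p = 5.96e-04). *Il7r*, the receptor for the survival cytokine IL-7, rose in aTreg cells (log2 fold change 1.41, adjusted p = 7.59e-05) and kTreg cells (1.62, adjusted p = 4.02e-06). In young mice alone its difference between aTreg and rTreg cells was not called (0.64, adjusted p = 0.316). With age in aTreg cells 1 was called, *Il7r*, which rose (1.85, adjusted p = 7.66e-04). The lower Treg genes and higher NK cell sums of old aTreg libraries, given above, moved with this rise, and their part was not tested. *Bcl2* was the 1 called with age in the other subsets, where it fell in rTreg cells and rose in kTreg cells (1.24, adjusted p = 0.00150).

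The effector regulators went the other way. Of 11 tested, 7 were higher in aTreg (5.23% of all genes) and 9 in kTreg (9.37%) than in rTreg cells. In kTreg against aTreg cells 6 were higher (4.13%), and none was lower in any of these. *Prdm1*, which encodes BLIMP-1 and is repressed by BACH2 in lymphocytes, rose by 1.53 in aTreg and 3.15 in kTreg cells on the log2 scale (limma adjusted p = 3.59e-04 and 9.48e-09). With both ages given equal weight *Rora*, *Maf* and *Ahr* rose at both steps, and *Gata3* in kTreg cells (2.71-fold, adjusted p = 1.95e-09). Within ages these steps were not all called. *Prdm1* differed between aTreg and rTreg cells by 2.04 in the young (limma adjusted p = 0.00154) and by 1.02 in the old, not called (adjusted p = 0.0793). From rTreg to aTreg cells *Ahr* differed by 1.93 in the young (adjusted p = 5.23e-04) and by -0.13 in the old (adjusted p = 0.864), and this change with age was called (-2.05, adjusted p = 0.0210). From aTreg to kTreg cells *Ahr* was not called in the young (0.81, adjusted p = 0.118), nor were *Rora* (0.09, adjusted p = 0.923) and *Maf* (0.33, adjusted p = 0.575) in the old. The differences of *Rora*, *Maf* and *Tbx21* between kTreg and rTreg cells were smaller in the old (changes of -1.39, -1.85 and -1.97, adjusted p = 0.00882, 0.00446 and 0.00780). *Tbx21* differed by 2.07 in the young (adjusted p = 1.56e-05) and by 0.09 in the old (adjusted p = 0.887). With age 8 of the 11 rose in rTreg cells (4.12% of all genes), 2 in aTreg cells (*Rora* and *Bhlhe40*, 1.85%) and 1 in kTreg cells (*Bhlhe40*, 1.02%). The macrophage, basophil, plasma cell, NK cell and platelet sums, higher in old than in young rTreg libraries, moved with the rTreg rises. Their part was not tested, also for *Prdm1*, which plasma cells express too.

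The relatives and partners of the members gave few calls, as did genes at large, so low counts in these short lists do not set them apart. Of 12 TCF/LEF relatives and cofactors 0 were called in aTreg against rTreg cells (5.23% of all genes higher and 2.78% lower). The count was also 0 in kTreg against aTreg cells (4.13% and 3.26%) and between ages (at most 4.12% and 1.71%). In kTreg against rTreg cells *Axin2*, a target of Wnt signalling (0.94), and *Tle2*, a corepressor (1.86), rose, and *Bcl9* (-1.36) and *Bcl9l* (-0.86), which link β-catenin to transcription, fell. The E proteins *Tcf3*, *Tcf4* and *Tcf12*, the partners of the Id proteins, were called in none of the 6 comparisons, *Tcf4* with an SE of 0.96 to 1.36. *Id1* was called lower in aTreg and kTreg cells, at 9.25 to 17.7 in young and 76.2 to 144 in old rTreg libraries and at most 22.3 in the other groups, and the old rTreg level was called higher than the young (2.81, limma adjusted p = 0.0179). Of the FOXO and FOXP relatives (4 of 5 listed) *Foxp2* rose in aTreg and kTreg cells from values of 0 in all young rTreg libraries, at most 105 anywhere, and *Foxp4* fell with age in aTreg cells (-1.07, limma adjusted p = 0.00576). Of 5 BACH relatives and small MAF partners *Mafg* rose in kTreg cells (0.60) and with age in rTreg cells (0.91), and *Nfe2l2* with age in aTreg cells (0.60). Of 8 other quiescence regulators 1 was called in these 6 comparisons, *Klf3*, lower in old than in young rTreg cells (-0.77, limma adjusted p = 0.00319). Within the old mice *Tob1* was lower in kTreg than in aTreg cells (-0.97, adjusted p = 0.0359). The change of a subset difference with age was called for *Btg1*, for aTreg against rTreg cells (0.63, adjusted p = 0.0365) and for kTreg against rTreg cells (0.72, adjusted p = 0.00841).

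*Mybl2*, the relative of *Myb* that serves the cell cycle and the only 1 of 3 MYB and SATB relatives listed, moved between subsets in the same directions as *Myb*. It was lower in aTreg than in rTreg cells (-1.39, limma adjusted p = 0.00131) and higher in kTreg than in aTreg cells (1.01, adjusted p = 0.0150). The aTreg difference from rTreg cells was -0.32 in the young (adjusted p = 0.845) and -2.46 in the old, a called change with age (-2.14, adjusted p = 0.0464). For kTreg against rTreg cells the change with age was called too (-2.75, adjusted p = 0.00617), from 1.00 in the young to -1.75 in the old. Unlike *Myb*, *Mybl2* rose with age in rTreg cells (1.84, adjusted p = 0.00437), where *Myb* had 0.38. With age in aTreg cells *Mybl2* was not called (-0.30, limma adjusted p = 0.893), where *Myb* fell (-1.65). The macrophage, basophil, plasma cell, NK cell and platelet sums, higher in old than in young rTreg libraries, moved with the rTreg rise of *Mybl2*. Their part in it and in the changes with age was not tested.

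**Figure D4:**
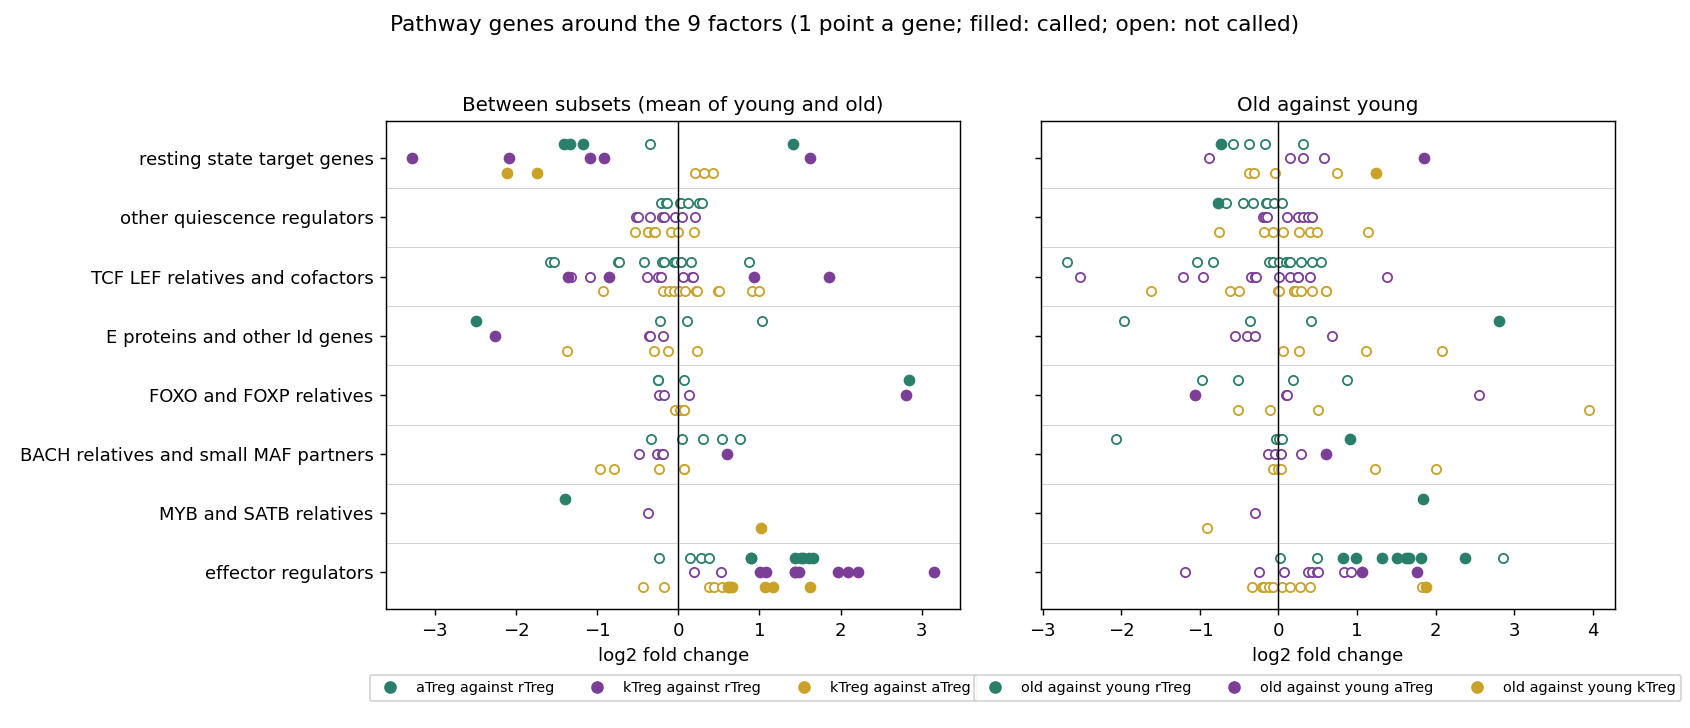
Log2 fold changes (x axes) of the tested genes of 8 pathway lists (rows), 1 point a gene, between subsets, left, and between ages, right; filled points were called. Effector regulators lie mostly right of 0 and resting-state target genes mostly left of 0 against rTreg cells, while the TCF/LEF, E protein and quiescence lists are mostly open points around 0.

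Across the 24 libraries, which share mice and fall into 6 groups, the members that fell together ran closest between *Foxp1* and *Foxo1* (Pearson r = 0.966) and between *Foxp1* and *Bach2* (0.925), and *Lef1* ran most against *Id2* (-0.945). Within groups, after each group's mean was taken off, *Foxp1* still ran with *Foxo1* (0.828), *Satb1* (0.757) and *Tcf7* (0.721), whereas *Lef1* and *Id2* did not (-0.141). *Tcf7* and *Lef1* had r = 0.363 over all libraries. The genes whose pattern over the 24 libraries was most like that of *Tcf7* were *Dennd2d* (0.936), *Bcl2* (0.930) and *Ssbp2* (0.915). For *Bach2* they were *Actn1* (0.957), *Gm15708* (0.945) and *Ugcg* (0.940). *Id2* had *Cd82* (0.960), *Asb2* (0.947) and *Rora* (0.934), and *Id3* had *Chchd10* (0.966), *Gpr83* (0.946) and *Gsta4* (0.937). Within groups *Cd82* and *Asb2* ran little with *Id2* (0.207 and 0.151), and *Rora* did so at 0.607. The genes named for *Tcf7*, *Bach2* and *Id3* had 0.429 to 0.831 within groups.

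Levels between genes, per kilobase of exon, put *Tcf7* at the 98.8th percentile of 16540 genes in young rTreg cells and at the 93.7th in young kTreg cells. *Id2* went the other way, from the 77.6th to the 97.4th, and *Id3* from the 98.6th to the 92.2nd. *Foxo1* stayed between the 90.5th and 95.1st in the rTreg and kTreg groups, and *Bach2* went from the 69.9th to the 35.1st in the young.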

How the data were processed

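RNA from sorted cells was amplified with SMART-Seq v4 and sequenced. Per the labels, the authors used HISAT2 2.2.1, SAMtools 1.13, HTSeq 1.99.2, DESeq2 1.44.0 and GRCm39; the annotation release is not given in the sources used here. The deposited values are a normalized signal, read counts per gene divided by a size factor for each library. In every library 100% of values were whole multiples of what 1 read is worth (within 0.001 reads), 0.694 to 1.32 units, so reads were recovered. Listed genes have at least 100 reads in all. Symbols came from GENCODE for 17353 of 17464 identifiers.

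The members and gene lists were chosen with earlier results of these data known. The named genes are the members, the genes of 8 pathway lists, and the 3 genes most correlated with each of *Tcf7*, *Bach2*, *Id2* and *Id3*; 1 gene of these lists is not reported here. The 16630 genes that reached 10 in 4 or more libraries were fitted with limma 3.58.1 in R 4.3.3 (6 group means over 24 libraries, mean-variance trend, pseudocount 1), since the deposited values are not counts; edgeR 4.0.16 and DESeq2 1.42.0 on recovered reads, TMM and equal totals, pseudocounts of 0.5 and 5, other filters, array weights, only the groups compared and leaving out each library or mouse were alternatives. The fits were tested on simulated data. The series' design says that the subsets came from the same mice, so replicate numbers pair libraries: deviations from group means correlated at medians of 0.0910 to 0.153 within a mouse and -0.0510 to -0.0330 between mice. No 2 libraries of a group agreed within sampling noise. Figures were drawn with matplotlib 3.10.9. Promoters came from RefSeq (GRCm38.p6 table), all 9 found on GRCm39. No depth interval was needed; precision is that of 4 mice a group.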

Additional observations from a re-analysis of the deposited data

Results flagged for a closer look

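Of the 54 sets of 4 values (9 members in 6 groups), 3 held 1 value far from the other 3, where chance flags about 1 in 20. *Bach2* in young rTreg 4 was at 1843, above 1495 to 1524 in the other young rTreg libraries. *Id3* in young rTreg 3 was at 8713, above 5290 to 5680, and without this library *Id3* was no longer called between old and young rTreg cells. *Id3* in old aTreg 2 was at 1311, below 1908 to 2004, and this is the library with the lowest *Foxp3* of all 24 (5080). *Myb* is named because its difference between aTreg and rTreg cells changed with age by -2.02 on the log2 scale (limma adjusted p = 0.0246), the test being that of the difference itself.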

How the results depend on the processing

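Over 46 alternatives, 32 of them leaving out a library or a mouse, the number of members called for aTreg against rTreg cells (6) was 6 to 8, for kTreg against rTreg cells (8) 8 to 9, for kTreg against aTreg cells (6) 5 to 7, for old against young rTreg cells (3) 2 to 4 and for old against young aTreg cells (6) 5 to 6. The mouse as a replicate block, random or fixed, left these at 6, 8 and 6, and the random block at 3 and 6. For old against young kTreg cells (0) it was 1 with a pseudocount of 5 or TMM, 2 with DESeq2 or unadjusted p, and 3 with array weights. The change of aTreg against rTreg cells with age (1) gave 2 with only the groups compared or array weights and 3 with unadjusted p. That of kTreg against rTreg cells (0) gave 1 with a pseudocount of 5, only the groups compared, TMM, edgeR or array weights, 2 with either replicate block or DESeq2, and 5 with unadjusted p. That of kTreg against aTreg cells (0) gave 1 with DESeq2, 2 with array weights and 3 with unadjusted p. Leaving out libraries gave 0 to 1, 0 to 2 and 0 to 1 for the first 3 of these. Why these counts moved was not tested.

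Directions turned for the differences that follow, none of them called. *Id2* in kTreg against aTreg cells was -0.0086 with edgeR and -0.0215 with array weights, and -0.0473 to 0.0918 with libraries left out. With equal totals the age change of aTreg against rTreg cells was -0.0035 for *Lef1* and -0.0478 for *Foxo1*. Array weights gave -0.24 for *Bach2* in the age change of kTreg against rTreg cells and -0.14 for *Tcf7* in old aTreg against old rTreg cells. With libraries left out, *Tcf7* ranged from -0.15 to 0.0271 in aTreg against rTreg cells, -0.11 to 0.24 in old aTreg against old rTreg cells and -0.0472 to 0.24 in old against young rTreg cells, and *Bach2* from -0.69 to 0.0518 in old against young kTreg cells and -0.29 to 0.55 in the age change of kTreg against rTreg cells. For the age change of aTreg against rTreg cells the ranges were -0.0045 to 0.16 for *Lef1*, -0.33 to 0.0927 for *Foxp1* and -0.10 to 0.11 for *Foxo1*, and for that of kTreg against aTreg cells -0.30 to 0.0708 for *Satb1*. The fixed block could give no age differences, since each mouse is of 1 age. No scaling moved the median of all genes by over 0.1. *Bach2* and *Myb* rest on few reads in places, down to 87 and 60.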
